A study of Mus musculus with 10 samples.

Results

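The 9 genes described here, Taf7l, Stk31, Mael, Dazl, Ddx4, Sycp1, Sycp3, Hormad1 and Asz1, are best known from germ cells and were picked by symbol from the 36586 genes of the deposited expression tables. They were chosen with earlier results of these data known, so their counts beside the shares of all genes describe them and test nothing. All 9 were found, each once. The tables hold 1 RNA library each from JM8.N4 mouse embryonic stem cells of 4 kinds: Rad23b-/- cells, Rad23b-/- cells that also carry an Xpc knockdown, labelled KD1 or KD2, and wild-type cells. RAD23B, which pairs with XPC in the complex that finds damaged DNA, was mapped by chromatin immunoprecipitation in 1 library of Xpc-/- stem cells and in 2 wild-type libraries of the D3 line, each beside a guinea pig IgG library. The labels do not say whether the RNA lines are single clones, nor which line the Xpc-/- cells are, and the wild-type line mapped for RAD23B is not the line measured for RNA. With 1 RNA library per genotype there is no test, and every ratio below compares those libraries and not the conditions in general.

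Germline genes act in the making of eggs and sperm: they package transcripts, silence transposons through piRNAs and build the axis on which meiotic chromosomes pair. In embryonic stem cells many of them are held at low levels by DNA methylation and by a Polycomb complex, PRC1.6, that contains E2F6 and the partners MGA and MAX, which bind E-box sequences.

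The promoters of these genes are shown first because 7 of the 9 carry the same 6-base E-box. Sequences are those of RefSeq on GRCm38.p6, in which all 9 genes were matched, and the first listed promoter was used for Stk31 and Hormad1, which have a second. Each line gives the 250 bases before the start, 5′ to 3′ on the strand of the gene, with capitals for an E-box (CACGTG) or an E2F6-type site (TTCCCGCC or its complement). The first 5 genes were at least 2-fold higher in Rad23b-/- cells, Hormad1 has both motifs and was not higher, and Dazl has neither.
Taf7l: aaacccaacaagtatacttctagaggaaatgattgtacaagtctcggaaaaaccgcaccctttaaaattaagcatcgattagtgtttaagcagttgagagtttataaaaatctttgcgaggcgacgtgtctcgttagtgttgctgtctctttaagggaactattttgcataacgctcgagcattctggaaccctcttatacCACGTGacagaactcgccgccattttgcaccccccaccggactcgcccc
Stk31: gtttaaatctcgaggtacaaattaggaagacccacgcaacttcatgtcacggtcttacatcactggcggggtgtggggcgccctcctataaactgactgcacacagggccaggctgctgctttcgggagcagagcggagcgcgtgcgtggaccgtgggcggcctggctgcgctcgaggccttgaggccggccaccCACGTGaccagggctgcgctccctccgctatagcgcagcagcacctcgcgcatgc
Mael: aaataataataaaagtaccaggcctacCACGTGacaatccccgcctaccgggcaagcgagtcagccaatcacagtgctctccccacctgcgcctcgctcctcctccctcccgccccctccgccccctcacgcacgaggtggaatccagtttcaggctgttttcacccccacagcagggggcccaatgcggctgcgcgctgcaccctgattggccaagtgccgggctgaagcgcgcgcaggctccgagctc
Sycp1: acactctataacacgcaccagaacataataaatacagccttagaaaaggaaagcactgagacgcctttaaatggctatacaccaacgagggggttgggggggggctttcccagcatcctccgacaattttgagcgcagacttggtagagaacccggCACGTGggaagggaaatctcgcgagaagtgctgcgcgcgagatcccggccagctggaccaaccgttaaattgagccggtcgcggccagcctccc
Ddx4: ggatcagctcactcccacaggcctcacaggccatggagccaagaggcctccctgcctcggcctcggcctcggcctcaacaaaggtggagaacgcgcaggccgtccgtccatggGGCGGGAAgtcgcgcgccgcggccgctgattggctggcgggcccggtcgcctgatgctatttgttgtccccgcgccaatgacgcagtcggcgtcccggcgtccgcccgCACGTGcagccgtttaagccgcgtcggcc
Hormad1: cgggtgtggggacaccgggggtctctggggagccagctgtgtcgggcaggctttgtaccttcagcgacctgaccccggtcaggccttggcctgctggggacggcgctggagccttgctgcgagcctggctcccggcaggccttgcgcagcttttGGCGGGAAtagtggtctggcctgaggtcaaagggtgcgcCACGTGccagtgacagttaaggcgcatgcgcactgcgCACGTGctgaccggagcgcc
Dazl: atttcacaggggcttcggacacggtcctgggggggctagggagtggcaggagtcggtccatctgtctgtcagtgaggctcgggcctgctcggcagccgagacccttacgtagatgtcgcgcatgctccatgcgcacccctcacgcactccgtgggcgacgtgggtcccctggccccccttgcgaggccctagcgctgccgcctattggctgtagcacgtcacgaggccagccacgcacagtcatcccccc

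Taf7l has its E-box 49 bases before the start (chrX:134476491-134476740, minus strand, for the printed stretch) and Stk31 55 bases before it (chr6:49395289-49395538, plus strand). In Mael it lies 223 bases upstream (chr1:166238745-166238994, minus strand), in Sycp1 94 (chr3:102936101-102936350, minus strand) and in Ddx4 29 (chr13:112652311-112652560, minus strand). Hormad1 has a pair, 57 and 20 bases upstream (chr3:95559427-95559676, plus strand), and so does Sycp3, 64 and 43 bases upstream. The printed Dazl stretch is chr17:50293621-50293870 on the minus strand, and Asz1 is the other gene with no E-box. The E2F6-type site was found on the opposite strand in Ddx4, 137 bases upstream, and in Hormad1, 96 bases upstream, in neither case touching an E-box.

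Searched on both strands of windows of 300 bases (250 before and 50 after the start), the E-box was in the first listed promoter of 7 of the 9 genes (77.8%) and of 1957 of 27025 genes in all (7.24%). The germline promoters are rich in CpG, with 15 to 38 CpG dinucleotides and a median of 24, against a median of 7 over all genes. Among the 8354 genes within that CpG range 11.5% held an E-box. An E-box pair or more was in 2 of the 9 genes (22.2%), in 0.625% of all and in 1.38% of those in the CpG range. The E2F6-type site was in 2 of the 9 (22.2%), in 2.24% of all and in 4.99% of those in the CpG range. The remaining shares cover only genes whose symbol matched a RefSeq promoter, with the 9 genes left out. Most of the 713 genes at least 2-fold higher in Rad23b-/- cells had no match. Of the 235 matched, 22 held an E-box (9.36%), against 896 of 8556 matched other genes over the RPKM limit (10.5%). The shares were 9.77% against 10.6% in KD1 and 10.6% against 10.5% in KD2. The groups differ in CpG, with a median of 14 among the higher genes in Rad23b-/- cells and 21 among the others, and the shares were not matched for it. These are matches of letters, not measured binding sites.

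**Figure D1:**
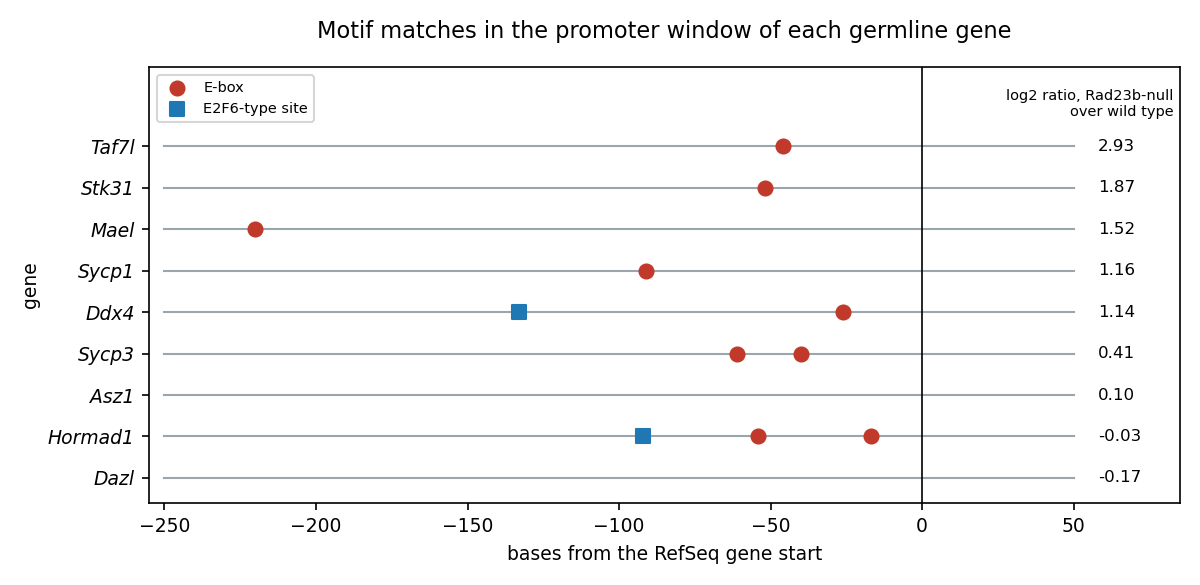
Positions of motif matches in the first listed RefSeq promoter of each gene, from 250 bases before to 50 after the start, with genes ordered by their log2 ratio in Rad23b-null over wild-type cells (numbers at right). E-boxes stand in all 5 genes with a ratio of at least 1, in Sycp3 and in Hormad1, and in neither Asz1 nor Dazl.

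RNA was measured as deposited RPKM, reads normalised to transcript length and library size, which allows levels to be compared between genes. The read totals are unknown, and the steps between low values give the mutant libraries 1.29 (Rad23b-/-), 1.23 (KD1) and 1.26 (KD2) times the wild-type depth. Rad23b itself stood at 43.9, 35.8 and 52.5 RPKM in Rad23b-/-, KD1 and KD2 cells, against 229 in wild type. Xpc stood at 8.34, 0.915 and 0.895, against 8.73. The 8 stem cell markers examined, among them Pou5f1 and Nanog, were above 1 RPKM in all 4 libraries. So were the 8 primordial germ cell markers, while 6 of 8 fibroblast, 7 of 8 oocyte and 6 of 7 Sertoli and somatic gonad markers were below 1 in all 4. The tables were scaled separately, so each mutant value is set against the wild-type value of its own table. Wild-type levels printed without a table are those of the Rad23b-/- table, which are 1.026 and 1.017 times those of the KD1 and KD2 tables.

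Of the 9 genes, 8 were expressed at 1 RPKM or more in every library and Asz1 was not. In wild-type cells Hormad1 (35.1 RPKM), Sycp3 (33.2) and Dazl (32.1) stood highest and close together, followed by Ddx4 (17.9), Mael (8.76), Sycp1 (4.02), Stk31 (3.65), Taf7l (2.28) and Asz1 (0.405). Without replicates no spread is known for this order. Hormad1 was above 72.3% of the genes at 1 RPKM or more in wild-type cells and Taf7l above 13.2%. Highest and lowest of the 8 expressed genes were 4.36-fold apart in Rad23b-/- cells, 5.38-fold in KD1, 4.07-fold in KD2 and 15.4-fold in wild type. The narrowing came from the lower end: the 5 genes of lowest wild-type level among the 8 were those at least 2-fold higher in a mutant library, and the 3 of highest level were less than 2-fold from wild type in each. Level and ratio share the wild-type library here.

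**Figure D2:**
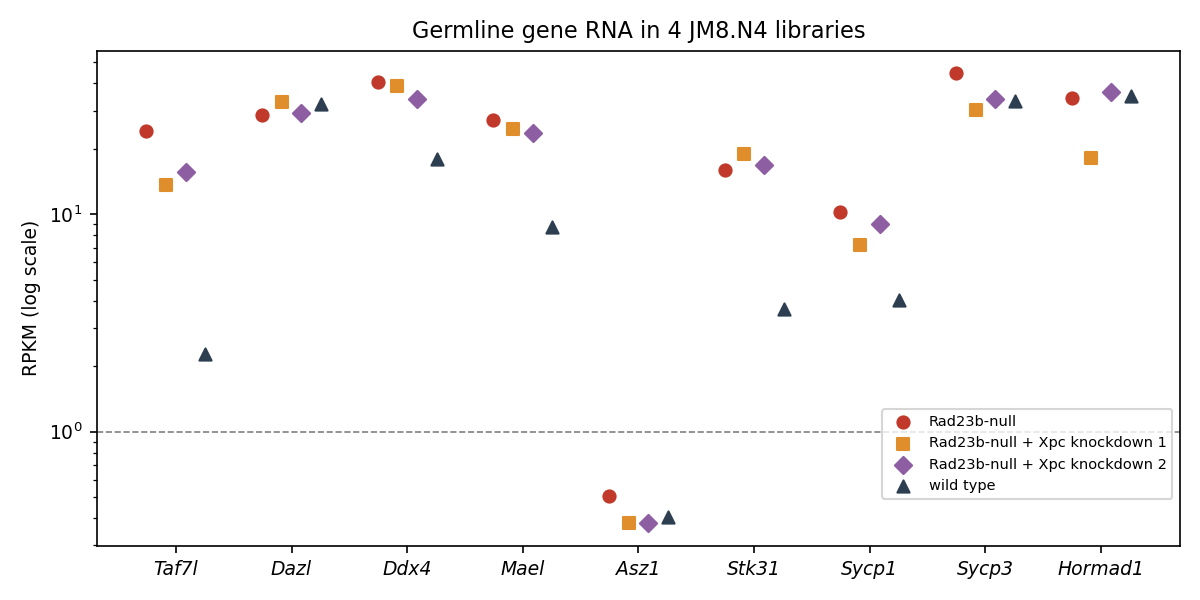
RPKM (log axis) of each of the 9 genes in the Rad23b-null library, in both knockdown libraries and in the wild-type library, 1 point per library; the dashed line marks 1 RPKM. Taf7l, Stk31, Mael, Ddx4 and Sycp1 lie higher in each mutant library than in wild type, and Asz1 stays below 1 throughout.

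Mutant and wild-type levels were compared as the log2 ratio of RPKM + 1, a scale that understates changes of low genes, and a gene entered a comparison when one of its libraries reached 1 RPKM. In bulk RNA, more RNA per cell and a larger share of cells that express a gene cannot be told apart. In Rad23b-/- cells 5 of the 8 germline genes that passed this limit were at least 2-fold higher than in wild type and 0 at least 2-fold lower. Of all 15040 genes, 4.74% were higher by that measure and 4.61% were lower. The germline genes were chosen with earlier results of these data known, so the gap between these shares is no test of enrichment. The median log2 ratio was 1.15 for the 8 genes and -0.16 for all genes, so most genes sit slightly below wild type on this scale. Centred on that median, 6.20% of genes were higher and 3.07% lower, and the germline count was again 5. Ratios of Dazl, Sycp3 and Hormad1 that lie within 0.17 of 0 have no firm sign, since that shift is of the same size. Among 8270 genes within the wild-type RPKM range of the 8, 2.32% were at least 2-fold higher.

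In KD1 cells 4 of the 8 genes were at least 2-fold higher than in wild type, against 3.95% of 14821 genes, and in KD2 cells it was also 4, against 3.93% of 14877. In both 0 were at least 2-fold lower, against 3.4% and 3.6%. The median log2 ratio of the 8 genes was 0.93 in KD1 and 0.96 in KD2, beside -0.14 over all genes in each. Taf7l, Stk31 and Mael were the 3 genes at least 2-fold higher in all 3 comparisons, which share the wild-type library. The 2 knockdown libraries differed from each other by 2-fold or more at 3.36% of genes, with a half-width of 0.22 on the log2 scale for the middle 68% of genes, which is the nearest these data come to a spread between like libraries.

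**Figure D3:**
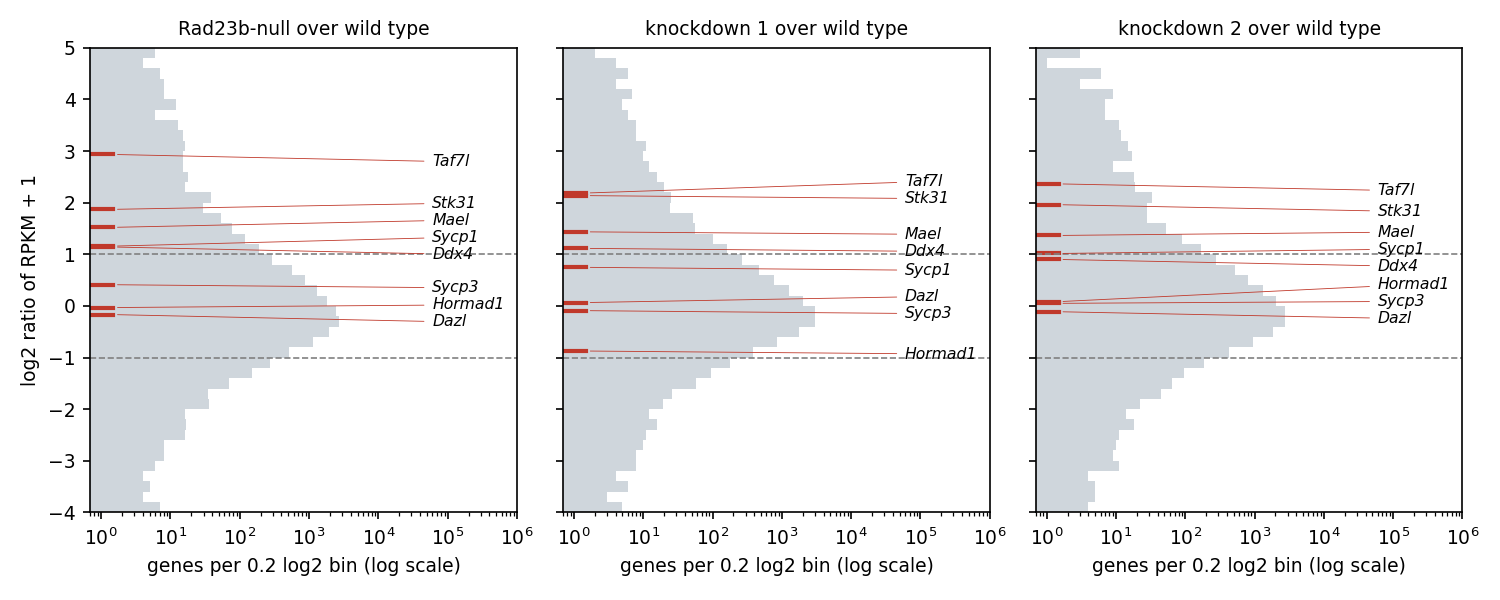
Log2 ratio of RPKM + 1 over wild type (vertical axis) in the Rad23b-null, knockdown 1 and knockdown 2 libraries; grey bars count all genes over the RPKM limit on a log axis, red ticks mark the 8 germline genes that passed it, and dashed lines mark 2-fold. Taf7l, Stk31 and Mael are above the upper line in each panel, Hormad1 is lower in knockdown 1, and Asz1 is not drawn.

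Taf7l, an X-linked relative of the TFIID subunit TAF7 with a role in sperm formation, stood furthest from wild type. Its RPKM was 24.1 in Rad23b-/- cells, against 2.28 in wild type, a 10.5-fold difference (log2 ratio 2.93). It was 13.7 in KD1 cells against 2.22 (6.15-fold), and 15.7 in KD2 cells against 2.24 (6.99-fold). All 3 mutant libraries were thus above wild type, with Rad23b-/- highest. In the ranking of log2 ratios from the top it was number 149 of 15040 genes in Rad23b-/- cells, 166 in KD1 and 170 in KD2. The authors' deposited table gives p-values of 0, 0.002 and 0.001, written to 3 decimals.

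Among RNA-binding proteins, Dazl and Ddx4 parted. Dazl, which binds transcripts in germ cells and promotes their translation, had 28.5, 32.8 and 29.1 RPKM in Rad23b-/-, KD1 and KD2 cells, against 32.1, 31.3 and 31.6 in wild type. The mutant values lay on both sides of wild type and all log2 ratios were between -0.17 and 0.07. Ddx4, the VASA helicase used as a marker of germ cells and a part of the piRNA machinery, had 40.8 RPKM in Rad23b-/- cells, against 17.9 in wild type (2.27-fold). It had 39.0 in KD1 against 17.5 (2.23-fold) and 33.8 in KD2 against 17.6 (1.91-fold). Every mutant value of Ddx4 was above wild type, with KD2 just under the 2-fold limit (log2 ratio 0.90). The authors' deposited table gives Ddx4 p-values of 0.021, 0.01 and 0.055.

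In the piRNA pathway Mael, a factor of transposon silencing in the male germ line, stood at 27.0 RPKM in Rad23b-/- cells, against 8.76 in wild type (3.08-fold, log2 1.52). It stood at 24.8 in KD1 against 8.53 (2.90-fold) and 23.7 in KD2 against 8.61 (2.76-fold). The 3 mutant libraries lay close together and well above wild type, with p-values of 0.003, 0.002 and 0.005 in the authors' deposited table. Stk31, a germ cell protein with a tudor and a kinase-like domain, had 15.98 RPKM in Rad23b-/- cells, against 3.65 in wild type (4.38-fold, log2 1.87). It had 19.0 in KD1 against 3.55 (5.35-fold) and 16.8 in KD2 against 3.58 (4.70-fold). KD1 was the highest of the 3 mutant libraries for Stk31, and the lowest for Taf7l. The p-values of Stk31 in the authors' deposited table are 0.007, 0 and 0.001.

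Stk31 shares its listed coordinates with Gm17060 on the opposite strand, and the library kit does not mark strand, so reads of the pair cannot be told apart by strand. Gm17060 was listed at 1.23, 1.67 and 1.32 RPKM in the mutant libraries, against 2.81 in wild type, so the 2 listed genes carry different values. Asz1, an ankyrin-repeat protein of the mitochondria-associated piRNA machinery, was listed at 0.508, 0.379 and 0.380 RPKM in Rad23b-/-, KD1 and KD2 cells, against 0.405, 0.395 and 0.399 in wild type. It passed the RPKM limit in no comparison. At this level a difference was not detectable.

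Sycp1, Sycp3 and Hormad1 build meiotic chromosomes: Sycp1 forms the transverse filaments of the synaptonemal complex, Sycp3 its lateral elements, and Hormad1 marks unsynapsed axes. Sycp1 was at 10.2 RPKM in Rad23b-/- cells, against 4.02 in wild type (2.54-fold). It was at 7.24 in KD1 against 3.91 (1.85-fold, log2 0.75) and at 9.01 in KD2 against 3.95 (2.28-fold, log2 1.01). All were above wild type, but the authors' deposited table gives p-values of 0.178, 0.3 and 0.176, so none was under 0.05.

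Sycp3 was at 44.5 RPKM in Rad23b-/- cells against 33.2 in wild type (log2 0.41), at 30.3 in KD1 against 32.4 (-0.09) and at 33.9 in KD2 against 32.7 (0.05). Only the Rad23b-/- library stood off from wild type, by less than 2-fold. Sycp3 shares its listed coordinates with Chpt1 on the other strand, which was at 13.6, 12.2 and 13.3 RPKM in the mutant libraries against 20.1. Hormad1 was at 34.3 RPKM in Rad23b-/- cells against 35.1 in wild type, at 18.2 in KD1 against 34.2 (0.532-fold, log2 -0.87) and at 36.6 in KD2 against 34.5. KD1 was the low library for Hormad1, with 4.79% of genes at a lower ratio, while the other mutant libraries were within 0.09 of 0 on the log2 scale. Its p-value in KD1 was 0.076 in the authors' deposited table.

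The authors' deposited table gives a p-value under 0.05 to 4 of the 8 genes in Rad23b-/- cells, to 4 in KD1 and to 3 in KD2, all of them higher than in wild type. Of the genes over the RPKM limit, 1.5% were higher with such a p-value in Rad23b-/- cells, 1.54% in KD1 and 1.54% in KD2. Lower with such a p-value were 1.27%, 1.22% and 1.2% of genes and 0 of the 8. These p-values rest on no replicates.

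Adding an Xpc knockdown to Rad23b loss moved 0 of the 8 genes by 2-fold in either direction, as judged from the difference between the log2 ratios to wild type. Over all genes, 1.58% lay 2-fold or more above Rad23b-/- cells in KD1 and 2.04% below, and in KD2 it was 1.63% and 1.82%. The log2 difference of KD1 from Rad23b-/- cells was -0.84 for Hormad1, -0.75 for Taf7l, -0.50 for Sycp3 and -0.41 for Sycp1, and between -0.09 and 0.27 for the other 4 expressed genes. That of KD2 was -0.57 for Taf7l and -0.36 for Sycp3, and between -0.24 and 0.11 for the other 6. For scale, the middle 68% of all genes spanned a half-width of 0.26 in KD1 and 0.21 in KD2, and the remaining genes lie outside it by construction. Taf7l and Sycp3 had negative differences beyond that width in both knockdowns, neither reaching 2-fold, and the comparisons share the Rad23b-/- library.

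RAD23B regions were listed at 6 of the 9 genes in both wild-type replicates, counting the locus and 5 kb on either side (66.7%, exact binomial 95% interval 29.9 to 92.5%, counting error only). Of all 23518 genes with coordinates of their own 42.6% had such a region, of the 8445 of these at 1 RPKM or more in wild type 77%, and of the 3890 genes at 1 RPKM or more with a locus in the germline genes' range of 14.2 to 118 kb, 89.3%. Within 1 kb of the listed start the count was 3 of 9 (33.3%, interval 7.49 to 70.1%), against 31.4% of genes with coordinates of their own, 66.7% of those at 1 RPKM or more and 79.5% of the expressed genes of like length. Stk31 and Sycp3 stand among the 9 and among the 6 though their coordinates are shared, and the shares of other genes leave such genes out. Taf7l, Ddx4 and Asz1 had no region. Asz1 was under 1 RPKM in wild type, so the 9 hold a gene that the shares of expressed genes leave out. The nearest listed region of replicate 1 lay 64.9 kb from the Taf7l locus, 8.76 kb from Ddx4 and 116 kb from Asz1. Regions and folds are the authors', in mm9 coordinates. In the replicate 2 list the fold column, like the read columns, is headed with the replicate 1 libraries. Its folds are given below as those of the replicate 2 list, and which libraries they compare was not settled.

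The starts of Mael, Dazl and Hormad1 were covered, each by a region with a fold below the median of either list. At Mael the replicate 1 region (chr1:168168525-168169088) held 144 RAD23B reads and 91 IgG reads, and the authors' scaled fold was 1.50 in the replicate 1 list and 1.93 in the replicate 2 list. Dazl had one region over its start (chr17:50432678-50433186, 131 RAD23B and 88 IgG reads, folds 1.41 and 1.53). A second Dazl region began 322 bases into the gene (chr17:50431909-50432602, 213 and 99 reads, folds 2.04 and 1.89). At Hormad1 the region over the start (chr3:95363242-95363838) held 241 RAD23B and 175 IgG reads with folds of 1.31 and 1.29. Its highest read depth in replicate 1 was 184 reads, against 185 in the Sycp1 region and 139 in the Stk31 region of high fold described next. For comparison, the median fold of all listed regions was 1.88 in replicate 1 and 2.09 in replicate 2. The Hormad1 fold was higher than that of 2.28% of replicate 1 regions and of 0.654% of replicate 2 regions.

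The regions of highest fold lay inside listed loci, far from the listed start. One stood 17.4 kb into the locus that Stk31 shares with Gm17060 (chr6:49362959-49363478). It held 166 RAD23B and 30 IgG reads with folds of 5.14 and 4.85. That fold exceeded those of 99.1% of regions in the replicate 1 list and 97.0% in the replicate 2 list. Another of lower fold stood 21.2 kb in (chr6:49366775-49367113, folds 1.68 and 2.14). The shared coordinates give neither the distance of these regions to the start of Stk31 itself nor which gene of the pair they lie in. Sycp1 held a region 87.0 kb into its locus (chr3:102652513-102653073) with 214 RAD23B and 53 IgG reads and folds of 3.80 and 4.91. Stk31 and Sycp1 were at least 2-fold higher in Rad23b-/- cells, and Taf7l and Ddx4, which were also higher, had no region.

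In the locus that Sycp3 shares with Chpt1, 3 regions were listed in replicate 1 and 2 of them in replicate 2, with folds of 1.68 to 1.84. The last (chr10:87966051-87966918) covers the end of the locus, which is the listed start of Chpt1, and the distance to the start of Sycp3 itself is not given by the shared coordinates. In all, 11 replicate 1 regions and 9 replicate 2 regions lay at the 9 genes, and 9 of the 11 were in both. The unshared ones were at Sycp3 and downstream of Hormad1. The RAD23B libraries held 109.3 M reads in replicate 1 and 62.53 M in replicate 2, and the lowest listed region maximum was 61 and 40 reads.

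**Figure D4:**
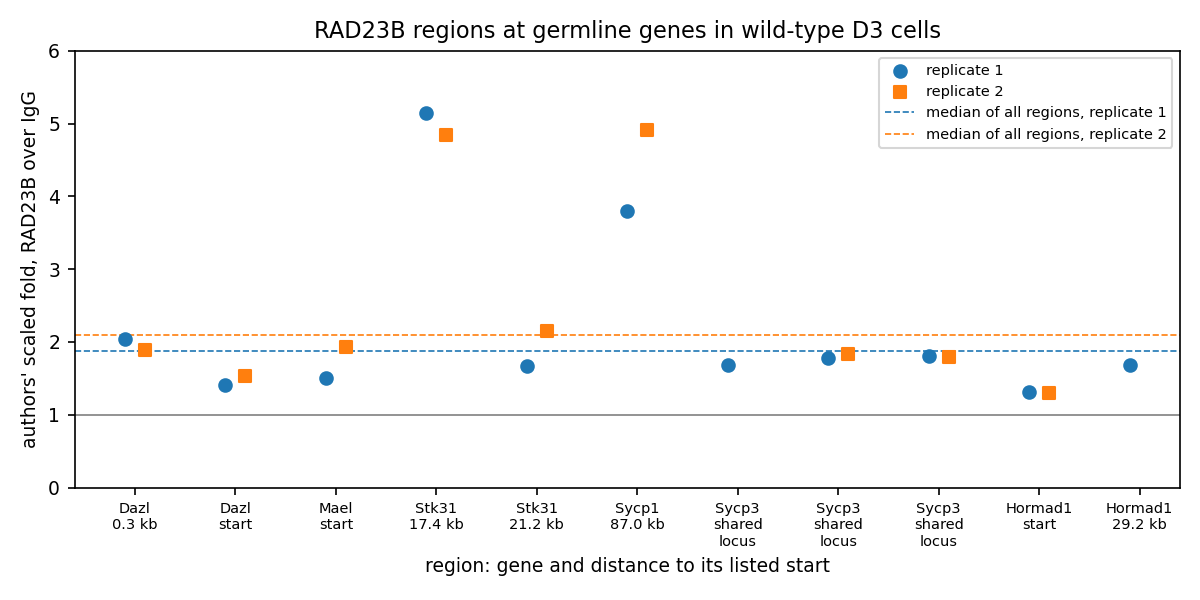
Authors' scaled fold of RAD23B over IgG for each of the 11 replicate 1 regions at the germline genes (circles) and the overlapping replicate 2 region (squares), labelled with the distance to the listed start; dashed lines are the medians of all listed regions. The Stk31 region at 17.4 kb, measured from the edge of a locus shared with Gm17060, and the Sycp1 region at 87.0 kb stand apart from the rest.

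In Xpc-/- cells no region was listed at any of the 9 genes (0 of 9, interval 0 to 33.6%), against 1.82% of genes with coordinates of their own and 3.92% of those at 1 RPKM or more. That list is short, with 828 regions, against 59768 and 42364 in the wild-type replicates, so a count of 0 among 9 genes is near what its background gives. Its headings do not settle whether the regions were called in the RAD23B or the IgG library. By heading, its folds and p-values set the Xpc-/- RAD23B library against the replicate 1 IgG library of wild-type cells, not the Xpc-/- IgG library. The nearest entry was 113 kb from Hormad1.

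Other germ cell genes were examined in lists chosen with earlier results of these data known, and each list was described by its counts alone. The 9 genes are in none of them. Each count is to be read beside the shares over all genes in Rad23b-/- cells, 4.74% higher and 4.61% lower. Of 26 piRNA pathway and transposon defence genes 19 passed the RPKM limit in Rad23b-/- cells, with 3 higher by 2-fold or more and 2 lower (1 and 2 in KD1, 1 and 1 in KD2). Dnmt3l, a cofactor of DNA methyltransferases, was at 393 RPKM against 181 in wild type, and Gtsf1, a piRNA cofactor, at 3.14 against 0.779. Pld6, a mitochondrial nuclease of the pathway, was at 4.29 against 12.1. Tex19.1 (41.7 against 52.0) and Rnf17 (51.8 against 47.5), both expressed well in wild type, were within 2-fold. The median log2 ratio of the list was 0.12. Dnmt3l and Rnf17 share listed coordinates with another gene, as do Syce2, Smc1b, Zcwpw1, Rec114, Boll, Tet1, Tdg, Dnmt3b, Dmc1 and Mei4 below.

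Of the synaptonemal complex and axis list 12 of 15 matched genes passed the limit, with 1 higher, 0 lower and a median of 0.01 (0 higher and 1 lower of 10 in KD1, 1 and 0 of 10 in KD2). The higher one was Smc1b, a meiotic cohesin subunit, at 4.92 RPKM against 1.57 in wild type, while Syce2 (80.3 against 79.9) and Stag3 (15.04 against 14.95) stood at their wild-type level. Of 22 meiotic entry and recombination genes 18 passed, with 3 higher and 2 lower and a median of -0.06. In KD1 it was 0 higher and 1 lower of 18, and in KD2 3 higher and 2 lower of 18. Stra8, the retinoic acid target that marks meiotic entry, was at 28.4 RPKM against 11.1, and Zcwpw1, a reader of histone marks at recombination sites, at 20.5 against 8.29. Rec114, needed for meiotic breaks, was at 6.05 against 15.1.

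Germ cell RNA-binding proteins as a list had 0 of 14 higher and 1 lower, with a median of -0.40 (0 and 2 of 14 in each knockdown). The lower one was Boll, of the same family as Dazl, at 3.23 RPKM against 15.5 in wild type. Its p-values in the authors' deposited table are 0.962, 0.968 and 0.96. Of the list genes named above as 2-fold apart in Rad23b-/- cells, Stra8 (0.033) and Smc1b (0.007) had such a p-value under 0.05. Dnmt3l (0.429), Rec114 (0.427), Zcwpw1 (0.215), Gtsf1 (0.105) and Pld6 (0.071) did not. The list of TFIID subunits and germ cell transcription factors had 1 higher and 1 lower of 14 (median -0.14), and 0 and 0 of 14 in each knockdown. Taf7, the general paralogue of Taf7l, stood at 116 RPKM against 139, Taf9 at 105 against 133, and Taf9b at 3.75 against 2.11. In the list of testis-specific and cancer-testis genes 2 of 16 were higher and 3 lower (2 and 2 of 14 in KD1, 2 and 4 of 15 in KD2). Slc25a31, a testis ATP carrier, was at 8.57 against 2.34, and Usp26, an X-linked testis protease, at 1.21 against 11.4.

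**Figure D5:**
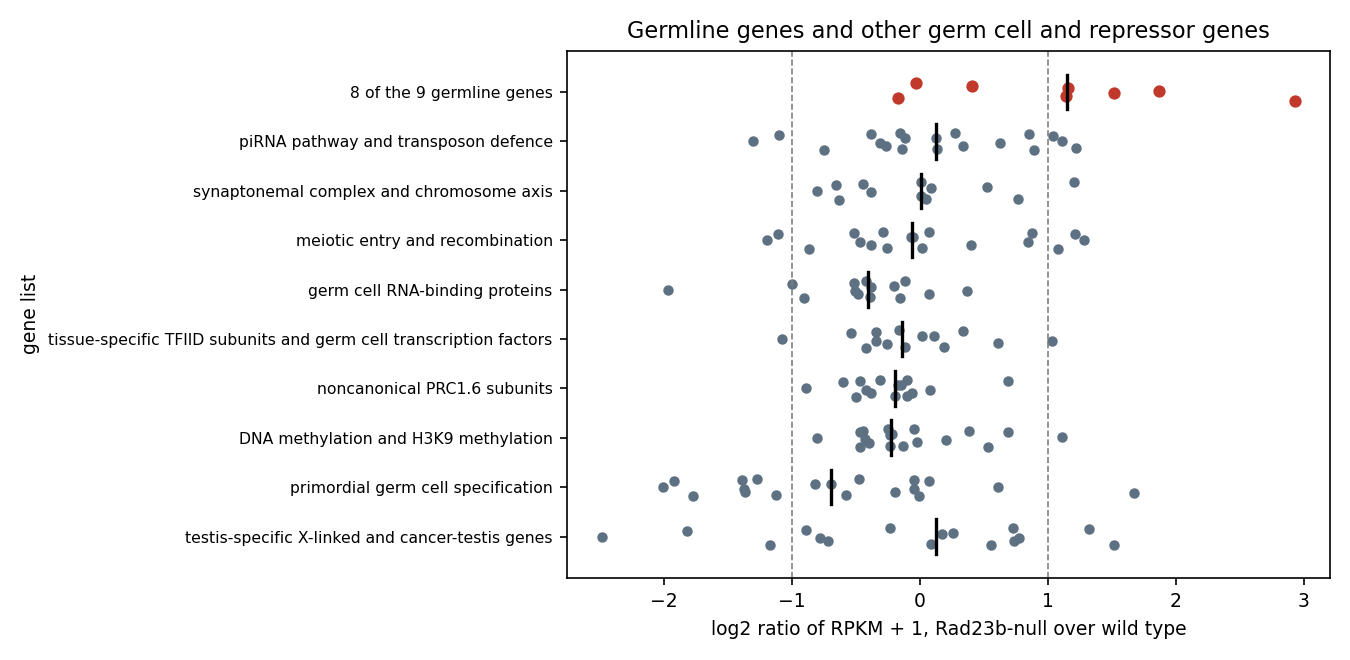
Log2 ratio of RPKM + 1 in Rad23b-null over wild-type cells for genes over the RPKM limit, 1 point per gene, in the 8 germline genes that passed (red) and in 9 other lists; black bars are medians and dashed lines mark 2-fold. The germline bar stands at 1.15, the primordial germ cell bar at -0.69 and the others between -0.40 and 0.13.

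Genes of chromatin repression were next examined. All 15 PRC1.6 genes passed the limit and 0 were 2-fold apart in any of the 3 comparisons (medians -0.19, -0.20 and -0.19 in Rad23b-/-, KD1 and KD2). E2f6, a DNA-binding subunit, was at 64.0, 30.4 and 39.4 RPKM in those libraries, against 39.4 in wild type. Of 18 genes that add or remove DNA methylation or act in H3K9 methylation, among them the demethylation genes Tet1, Tet2, Tet3 and Tdg, 1 was higher, Dnmt3l again, and 0 lower. Dnmt3b, a de novo methyltransferase, was at 40.1 RPKM against 24.5, and Trim28, a corepressor, at 762 against 1331.

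Of 19 genes of primordial germ cell specification, 8 were at least 2-fold lower in Rad23b-/- cells and 1 higher, against 4.61% and 4.74% of all genes, with a median of -0.69. In KD1 6 were lower and 1 higher, against 3.4% and 3.95%, and in KD2 7 and 1, against 3.6% and 3.93%. Prdm14, which acts in both germ cell founding and naive stem cells, was at 5.07 RPKM against 19.8, Ifitm1 at 69.4 against 281 and Klf4 at 20.1 against 78.7. Most of these genes are stem cell genes as well. Of the 12 spermatogonial and meiotic markers, 8 were below 1 RPKM in all 4 libraries, and Tnp1 was read as 0 in each. Most of all genes were below 1 RPKM in wild type as well. The summed RPKM of the 12 markers was 59.6, 30.4 and 51.1 in Rad23b-/-, KD1 and KD2 cells, against 29.3 in wild type, nearly all of it Stra8 and Dmc1. The 8 stem cell markers summed to 1667, 2086 and 1985 RPKM in Rad23b-/-, KD1 and KD2 cells, against 2845 in wild type, with 5 of 8 at least 2-fold lower in each. The part of these marker levels in the germline gene values was not tested.

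The genes nearest in pattern were those with the smallest Euclidean distance over the 3 log2 ratios, among 8745 genes with coordinates of their own over the limit in each table. To Taf7l these were Gm4340 (distance 0.31), Gm8766 (0.31) and Gm17576 (0.39), with 0.208 to 0.249 RPKM in wild type. To Stk31 they were the lincRNA Gm13056 (0.16), Laptm5 (0.27) and Mdfi (0.39), and to Mael they were Ddit4 (0.10), Lgals3 (0.12) and Tchh (0.16). Ddit4 stood at 323, 283 and 284 RPKM in the mutant libraries against 106 in wild type.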

How the data were processed

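The 10 samples are 6 ChIP-seq and 4 poly-A RNA libraries. The expression tables hold RPKM from the authors, for which the submitters' processing notes name the build mm9 and the tools Cuffdiff, Cufflinks 2.0.2 and TopHat2 2.0.6. The ratio and p-value columns there are deposited values whose adjustment is not stated. The region lists hold, per the file headers, read counts, RPM, a scaled fold and p-values, which the authors obtained with Partek, per the submitters' processing notes; neither its aligner nor its cut-offs were found in the labels. The headings of the replicate 2 list name the replicate 1 libraries, so its read columns and those of the Xpc-/- list (4 columns) were not used. The fold and p-value columns of the replicate 2 list also name the replicate 1 libraries and were kept as the values of that list. RPKM of exactly 1 (13841 wild-type values) was read as 0. Of 36658 lines, 72 name no gene and were left out.

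Computations used Python 3.11.15, matplotlib 3.10.9, pandas 2.3.3, numpy 2.4.6 and scipy 1.17.1, tested on simulated data. Ratios used a pseudocount of 1 and an RPKM limit of 1 in either library. Regions were assigned to listed loci with 5 kb on either side and counted as shared with 1 base of overlap. The members, lists and settings were chosen with earlier results of these data known. Beyond the 9 genes, names come from a rule: in each list the 3 genes of highest wild-type RPKM and the 3 of largest change in Rad23b-/- cells, of which the text gives some. Depth is 109.3 and 62.53 M reads for the wild-type RAD23B lists and unknown for RNA, where the number of libraries limits the precision.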

Additional observations from a re-analysis of the deposited data

How the results depend on the processing

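The counts of germline genes at least 2-fold higher and the medians were recomputed with a pseudocount of 0.1, without the RPKM limit, with a limit of 5, centred on the median of all genes, with the deposited value of 1 kept, and without Stk31 and Sycp3, whose coordinates are shared. The counts were 4 to 5 in Rad23b-/- cells (5 as reported), 3 to 4 in KD1 (4) and 3 to 5 in KD2 (4), and no median moved by 0.22 or changed sign. A pseudocount of 0.1 raised the log2 ratio of Taf7l to 3.34, 2.57 and 2.75 and that of Stk31 to 2.10, 2.39 and 2.20 in Rad23b-/-, KD1 and KD2 cells. Genes with a shared RAD23B region fell to 3 within 1 kb of the start, and to 3 with an authors' fold of at least 2, by construction of those stricter rules. They numbered 6 to 6 in either replicate alone, and 6 with the locus alone, with 1 kb on either side or with a stricter overlap of the replicates. The Xpc-/- count was 0 under each alternative. No paired analysis was possible because these results come from no test. Depth limits statements on Asz1, and single RNA libraries limit all ratios.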

Other observations

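Hormad1 was lowest in KD1 among the mutant libraries, and so were Stra8 (13.1 RPKM in KD1, against 25.0 in KD2 and 28.4 in Rad23b-/- cells), Dmc1 (15.4, against 24.1 and 28.6) and Smc1b (2.56, against 4.50 and 4.92), all chosen after their values were seen. Over both meiotic lists this was not general. Of 28 genes over the RPKM limit in all 3 tables, KD1 had the lowest log2 ratio to wild type of the 3 mutant libraries in 12 and the highest in 10. Mnd1, a recombination factor, was at 18.4 RPKM in KD1, against 12.5 in KD2 and 13.5 in Rad23b-/- cells, and Mei4, needed for meiotic breaks, at 4.89, against 3.89 and 3.44. With 1 library each these differences were not tested.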
